A study of Homo sapiens with 20 samples.

Results

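Kinesins are ATP-driven motor proteins that walk along microtubules or take their ends apart, and their genes carry the human symbols KIF and KIFC. The genes were taken by symbol, as every row named KIF or KIFC followed by a number and at most 1 further letter, a rule that uses no measured value although earlier results of these data were known when it was set. The rule found 43 of the 58288 genes counted. By function 14 were placed in a mitotic list, 15 in a transport list and 14 in neither, called here the other kinesins. A filter on low counts left 34 kinesins for testing (12 mitotic, 13 transport and 9 other), out of 16478 genes in all. KIF4B is a near-identical retrogene copy of KIF4A, so that reads may be split between them.

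Transcripts with poly(A) tails were sequenced from DOHH2 and U2932, both labelled as lines of diffuse large B-cell lymphoma, a tumour of B lymphocytes. The cells received TK, a compound that the labels do not describe further and whose dose they do not give, or DMSO, the solvent used as control. The groups were DOHH2 with TK for 18 h (3 libraries), DOHH2 with DMSO for 18 h (2 libraries), DOHH2 with TK for 8 h (3 libraries) and DOHH2 with DMSO for 8 h (3 libraries). For U2932 they were TK for 18 h (3 libraries), DMSO for 18 h (1 library), TK for 8 h (2 libraries) and DMSO for 8 h (3 libraries). Nothing in the labels says that libraries of a group came from separate cultures, so p-values measure only the spread between these libraries, which may be technical. All comparisons of TK with DMSO in U2932 at 18 h rest on 1 DMSO library, which the model assumes to vary like the other groups. Each line stands for its type by 1 example only.

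Mitotic kinesins build and shape the spindle. Some push the poles apart, some move or hold chromosomes, some shorten microtubules at their ends, and some bundle the central spindle on which the cell later divides. Their transcripts are known to be low in G1 and to peak in G2 and M, so their level in a culture tends to follow how many cells are dividing. Transport kinesins carry vesicles, mitochondria and other cargo along microtubules in cells at any stage, most of them toward the cell surface and KIFC2 and KIFC3 toward the minus ends. In bulk RNA, more cells in mitosis and more of a transcript in each cell cannot be told apart.

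The periodic expression of mitotic genes is tied in many promoters to a cell-cycle homology region (CHR), which is bound by the DREAM and MYB-MuvB complexes, often at a short distance from CCAAT boxes bound by NF-Y. The RefSeq promoter table (GRCh38.p14), which reaches from 250 bases before to 50 bases after each start, held 34 of the 43 kinesins. Each window was searched on both strands for a CHR, taken as the letters TTTGAA (which read TTCAAA from the opposite strand) or the palindrome TTCGAA. It was also searched for CCAAT, which from the opposite strand reads as ATTGG. Among the mitotic kinesins 11 of 14 held a CHR (78.57%), against 1 of 11 transport kinesins, 1 of 9 other kinesins and 19.54% of the 27305 genes in the table. A CHR together with CCAAT was found in 10 of 14 mitotic kinesins, 1 of 11 transport kinesins, 1 of 9 other kinesins and 7.848% of all genes. The transport kinesin with a CHR was KIF5B and the other kinesin was KIF24, a centriole motor. The windows of KIF20A, KIF2C and KIF2B held no CHR letters. The 5 mitotic promoters printed next have both motifs, in capitals, upstream of the start, and the 2 transport promoters show windows with neither motif. They do not stand for all mitotic kinesins with both motifs. In KIF14, KIF18B, KIF4B, KIFC1 and KIF20B the first CHR began 1, 2, 3, 4 and 24 bases after the start. Each is 100 bases of the coding strand, written 5′ to 3′ and ending at or near the start.
KIF23 (chr15:69414249-69414348, plus strand): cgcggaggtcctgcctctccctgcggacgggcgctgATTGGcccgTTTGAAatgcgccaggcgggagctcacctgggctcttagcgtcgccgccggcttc
KIF4A (chrX:70290004-70290103, plus strand): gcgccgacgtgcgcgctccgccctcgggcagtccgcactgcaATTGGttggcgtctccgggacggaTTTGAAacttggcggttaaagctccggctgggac
KIF11 (chr10:92593030-92593129, plus strand): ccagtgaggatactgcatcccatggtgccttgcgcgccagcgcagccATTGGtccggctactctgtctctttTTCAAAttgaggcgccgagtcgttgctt
KIF22 (chr16:29790651-29790750, plus strand): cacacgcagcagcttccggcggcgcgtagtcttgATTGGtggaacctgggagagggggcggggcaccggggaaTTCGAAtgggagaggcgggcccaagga
KIF18A (chr11:28108157-28108256, minus strand): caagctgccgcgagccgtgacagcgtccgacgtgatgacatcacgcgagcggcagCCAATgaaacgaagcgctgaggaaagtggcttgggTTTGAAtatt
KIF1C (chr17:4997850-4997949, plus strand, transport): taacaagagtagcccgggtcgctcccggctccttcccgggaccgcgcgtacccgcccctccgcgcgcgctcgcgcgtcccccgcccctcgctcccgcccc
KIF3A (chr5:132737547-132737646, minus strand, transport): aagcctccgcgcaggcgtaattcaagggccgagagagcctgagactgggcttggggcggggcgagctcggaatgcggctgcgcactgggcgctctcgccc
In KIF23 the CHR lay 55 bases upstream of the start and the nearest CCAAT box 64 bases upstream, in KIF4A 34 and 58, in KIF11 28 and 53, in KIF22 27 and 66, and in KIF18A 10 and 45. A match is a description of these letters and not a binding site.

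Sequencing depth ran from 30363255 to 52275430 gene counts per library over 20 libraries, with a median of 34671988. In the first DOHH2 library with TK for 18 h, 56.6% of alignments were not unique, against 20.7% to 34.3% in the other 19. In the first DOHH2 library with TK for 8 h, mitochondrial genes made up 3.29% of counts, against 5.06% to 8.08% in the other 19. Results are given with all libraries, and the values without these 2 follow where they move. The B-cell marker CD79A averaged 439.6 CPM (a gene's counts scaled to the library's total) in DOHH2 and 462 CPM in U2932, and MS4A1 averaged 85.9 CPM in DOHH2 and 1207 CPM in U2932. T-cell markers stayed at 0.60 to 1.21 CPM and 2.58 to 7.03 CPM, and myeloid markers at 0.0651 to 1.04 CPM and 0.993 to 2.08 CPM, in DOHH2 and U2932. Epithelial markers summed to 0.179 to 1.22 CPM in DOHH2 and 21.3 to 32.6 CPM in U2932, and fibroblast markers to 10.3 to 34.5 CPM in DOHH2 and 0.596 to 4.48 CPM in U2932. The U2932 epithelial sum was mostly EPCAM, at 26.6 CPM on average, with KRT8, KRT18 and CDH1 at 0.237, 0.209 and 0.123 CPM. In DOHH2 the fibroblast markers averaged 12.8 CPM for COL1A1, 4.86 CPM for PDGFRB and 0.355 CPM for COL1A2. BCL6, the repressor that marks germinal-centre B cells, averaged 0.0983 CPM in the 11 DOHH2 libraries and 385 CPM in the 9 U2932 libraries. IRF4, high in activated B cells and plasma cells, averaged 802 CPM in DOHH2 and 371 CPM in U2932. DOHH2 is usually classed as a germinal-centre line and U2932 as an activated B-cell line, and these 2 genes run against that classing. The line names used here are those of the labels, and every direction between the lines rests on them.

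Levels of different kinesins were compared as CPM per kilobase of exon, averaged over all libraries of a line. KIF22, a chromokinesin that pushes chromosome arms away from the poles, had the highest level in both lines, 37.9 ± 5.36 in DOHH2 (SD, n = 11) and 39.6 ± 9.32 in U2932 (SD, n = 9). In DOHH2 it was followed by KIF1C, a vesicle motor, at 23.8 ± 4.96, KIF2C, the centromere depolymerase MCAK, at 22.2 ± 2.89, KIF5B, the kinesin-1 heavy chain found in all tissues, at 22.1 ± 2.61, and KIF11, the spindle motor Eg5, at 19.7 ± 4.60. These 4 neighbours lay within their spread of each other. In U2932 KIF22 was followed by KIF2C at 33.7 ± 8.72, KIFC1, a minus-end motor that focuses spindle poles, at 19.0 ± 4.78, KIF5B at 18.7 ± 3.46, and KIF20A, which brings the chromosomal passenger complex to the central spindle, at 17.5 ± 4.98. KIFC1, KIF5B and KIF20A did not differ beyond their spread. KIF1C, which stood next to KIF22 in DOHH2, had 8.87 ± 1.02 CPM per kilobase in U2932.

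Of the 9 kinesins below the filter, KIF12 had no count in any of the 20 libraries. The others were KIF4B with 20 counts over all libraries together, KIF17 with 36, KIF1A with 16, KIF2B and KIF19 with 6 each, and KIF6, KIF25 and KIF28P with 3 each. KIF1A is a neuronal vesicle motor, KIF17 a kinesin-2 of neurons and cilia, and KIF6 and KIF19 motors of motile cilia.

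TK was compared with DMSO at each time in each line to ask what the compound does to transcription. No kinesin passed the threshold (Benjamini-Hochberg adjusted p under 0.05 over all 16478 genes, edgeR's quasi-likelihood test) in any of the 4 comparisons, and DESeq2 called none either. Of all genes tested, edgeR called 0.0728% at 18 h in DOHH2 and 0.0182% at 18 h in U2932, with 0% at 8 h in either line, so few genes of any kind were called. At an unadjusted p under 0.05 there were 4 of 34 kinesins in DOHH2 at 18 h and 0 at 8 h. In U2932 there were 2 at 18 h and 3 at 8 h. The share of all genes at that p was 8.56%, 3.02%, 7.45% and 1.67% in the same order. The values that follow are therefore descriptions of these libraries. Under other processing some kinesins were called. With limma voom and library quality weights they were KIF18B, KIFC1, KIF2C and KIF3C in DOHH2 at 18 h. Against the DMSO libraries of 8 h and 18 h together they were KIF4A, KIF20A, KIF2C and KIF27 in U2932 at 18 h. The share of all genes called in these ways is not given here.

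In DOHH2 at 18 h the mitotic kinesins lay lower with TK than with DMSO. Their summed level was 776, 750.4 and 749 CPM in the 3 TK libraries, against 936 and 894 CPM in the 2 DMSO libraries, and the groups did not overlap. Means were 758 ± 15.3 CPM (SD, n = 3) with TK and 915 ± 29.5 CPM (SD, n = 2) with DMSO. All 12 tested members had a negative log2 change, with a median of -0.23, while 52.9% of all genes had a positive one and their median was 0.02. The 13 transport kinesins had a median of 0.10, with 10 positive values. Without the first TK library, whose alignments stood apart, 9 of the 12 mitotic kinesins were negative, with a median of -0.29, and the transport median was 0.02. The 3 that turned were KIF14 (0.01), KIF18A (0.13) and KIF20B (0.16). Set against the DMSO libraries of 8 h and 18 h together, the mitotic median was 0.01 with 6 of 12 negative. With replicate number as a block the median was -0.14.

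**Figure D1:**
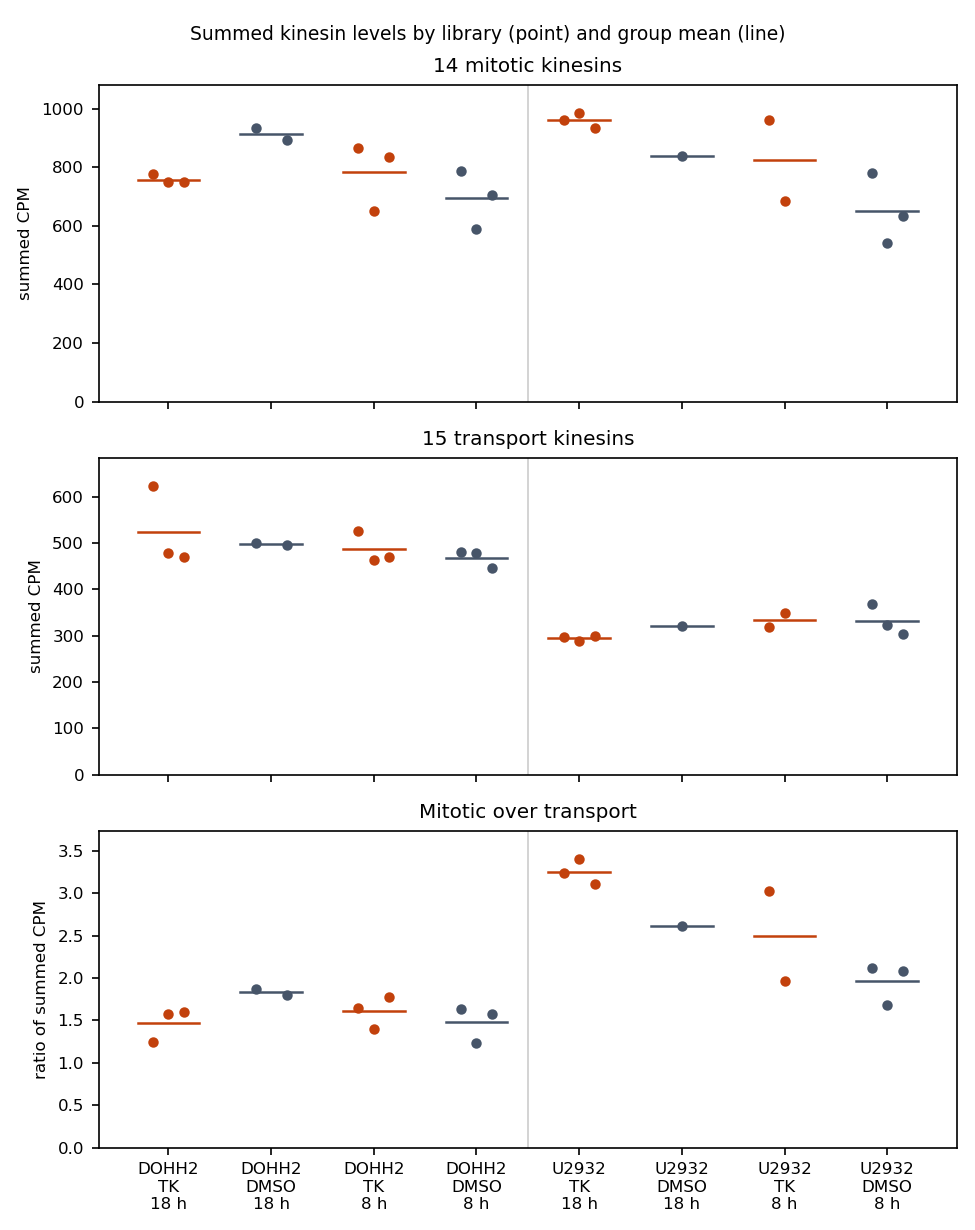
Summed level in CPM of the 14 mitotic kinesins (top) and the 15 transport kinesins (middle), and their ratio (bottom), for each line, time and treatment. Points are libraries and lines are group means. In DOHH2 at 18 h the 3 TK libraries lie below both DMSO libraries in the mitotic sum, and in U2932 at 18 h the 3 TK libraries lie above the single DMSO library.

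Among the motors of the bipolar spindle, KIF11 slides antiparallel microtubules apart and KIF15 can stand in for it, while KIFC1 works against them. KIF11 had 65.5, 108 and 96.7 CPM with TK for 18 h in DOHH2, against 128 and 116 CPM with DMSO. KIF15 had 42.4, 47.4 and 52.0 CPM with TK, against 55.7 and 62.0 CPM with DMSO. KIFC1 had 49.2, 37.9 and 46.0 CPM with TK, against 60.0 and 59.1 CPM with DMSO. In each of these genes every TK library was below every DMSO library. The log2 changes were -0.43 (SE 0.23, adjusted p = 0.618) for KIF11, -0.32 (SE 0.23, adjusted p = 0.777) for KIF15 and -0.43 (SE 0.20, adjusted p = 0.581) for KIFC1 in edgeR. Without the first TK library the values were -0.25 for KIF11, -0.24 for KIF15 and -0.51 for KIFC1.

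KIF18B had the smallest p of the mitotic list in this comparison. It sits at the growing ends of astral microtubules and limits their length. Its level was 90.5, 70.0 and 71.6 CPM with TK for 18 h in DOHH2, against 107 and 109 CPM with DMSO, with no overlap. The log2 change was -0.48 (SE 0.15, adjusted p = 0.301, edgeR), with an unadjusted p of 0.00375 in the same test. Without the first TK library it was -0.61 (adjusted p = 0.102, edgeR). With limma voom and library quality weights it was -0.60 (adjusted p = 0.000567, limma voom). KIF23, the motor of the centralspindlin complex needed to divide the cell, also did not overlap, with 54.2, 60.3 and 58.7 CPM with TK against 75.3 and 72.7 CPM with DMSO, a log2 change of -0.36 (SE 0.21, adjusted p = 0.666, edgeR) that was -0.32 without the first TK library. KIF11, KIF15, KIFC1, KIF18B and KIF23 were the 5 mitotic kinesins whose TK libraries all lay lower, beside 13.2% of all genes tested. The other 7 overlapped, with log2 changes between -0.24 for KIF2C and -0.08 for KIF18A, a motor that damps chromosome movements at the metaphase plate.

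The transport kinesin with the smallest p in DOHH2 at 18 h was KIF5A, a neuronal kinesin-1 heavy chain. It had 10, 2 and 1 counts in the TK libraries and no count in either DMSO library. Set against a floor of 3 counts over the DMSO group, its level with TK was at least 2.73-fold higher, and 10 of the 13 counts came from the library that stood apart. KIFC2, a minus-end directed transport motor, had 19.7, 27.7 and 22.9 CPM with TK, against 28.3 and 33.2 CPM with DMSO, a log2 change of -0.39 (SE 0.16, adjusted p = 0.501, edgeR) that was -0.28 without the first TK library. KIFC2 shares 17.79% of its exon length with FOXH1 on the other strand. The remaining tested transport kinesins overlapped between the treatments, and KIF1C, at 0.11, was -0.25 without the first TK library. KIF3C moved more. It had 2.79 to 8.14 CPM with TK, the highest in the first library, against 4.51 and 5.22 CPM with DMSO. Its log2 change was -0.05, and -0.69 without the first TK library (adjusted p = 0.319, edgeR). With limma voom and library quality weights it was -0.63 (adjusted p = 0.0172, limma voom).

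At 8 h in DOHH2 the mitotic log2 changes had the opposite sign, but the libraries overlapped. The summed level was 867, 651 and 834 CPM with TK, against 789, 591 and 705 CPM with DMSO. Each TK sum was above the DMSO sum of the same replicate number, though the labels do not say that equal numbers are pairs. The highest sum was that of the TK library with the low mitochondrial share. All 12 log2 changes were positive, with a median of 0.18, beside 52.4% positive and a median of 0.01 over all genes and a median of 0.00 over the transport kinesins. KIF4A, a chromokinesin that also works with PRC1 on the central spindle, had the smallest p. It had 48.7, 37.3 and 40.9 CPM with TK, against 37.2, 31.0 and 36.1 CPM with DMSO, so that the lowest TK library was just above the highest DMSO library, as in 2.71% of all genes. Its log2 change was 0.28 (SE 0.17, adjusted p = 1, edgeR), and 0.17 without the first TK library. The mitotic median depended on single libraries, with 0.07 without the second DMSO library, 0.08 without the third TK library, 0.11 without the first TK library, and 0.30 without the first DMSO or the second TK library. KIF5A, again the transport kinesin with the smallest p, had 2, 4 and 0 counts with TK and 0, 2 and 0 counts with DMSO, a ratio of 3.38 (95% counting interval 0.605 to 34.3).

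In U2932 at 18 h the mitotic sum was 963, 985 and 935 CPM with TK, against 839 CPM in the single DMSO library. Of the 12 tested members 10 were positive, their median log2 change being 0.20, beside 49.3% positive and a median of 0.00 over all genes. That median was 0.03 with replicate number as a block and 0.47 against the DMSO libraries of 8 h and 18 h together. The transport kinesins had a median of -0.21, with 4 of 13 positive. The same 10 mitotic members were above the DMSO library in every TK library, as were 31.2% of all genes, a share made high by having 1 control library. KIF20A had the smallest p, with 94.1, 84.3 and 88.9 CPM with TK against 61.2 CPM with DMSO, a log2 change of 0.54 (SE 0.27, adjusted p = 0.684, edgeR). KIF18A had 51.2, 42.6 and 41.5 CPM with TK against 31.0 CPM with DMSO, and KIF4A 80.7, 72.9 and 76.2 CPM against 56.5 CPM. KIF11 was not among the 10, with 61.1, 59.6 and 58.9 CPM with TK against 63.8 CPM with DMSO.

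KIFC2 had the smallest p of the transport list in U2932 at 18 h, with 21.0, 26.4 and 27.6 CPM with TK against 33.4 CPM with DMSO, a log2 change of -0.42 (SE 0.20, adjusted p = 0.661, edgeR). Set against the DMSO libraries of 8 h and 18 h together, its value was 0.08. KIF27, a paralogue of the Hedgehog pathway kinesin KIF7, had 1.95, 1.40 and 1.31 CPM with TK against 2.68 CPM with DMSO, a log2 change of -0.80 (SE 0.31, adjusted p = 0.578, edgeR).

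In U2932 at 8 h the mitotic sum was highest in the first TK library. It was 963 and 685 CPM in the 2 TK libraries, against 781, 543 and 633 CPM with DMSO. Here too each TK sum was above the DMSO sum of the same replicate number. All 12 members were positive on the log2 scale (median 0.37), beside 49.7% positive over all genes and a transport median of -0.01. Without the first TK library the mitotic median was 0.09 with 9 positive, and without the second DMSO library 0.24. KIF18B, with the smallest p, had 91.3 and 70.1 CPM with TK, against 71.6, 56.1 and 60.6 CPM with DMSO, a log2 change of 0.36 (SE 0.15, adjusted p = 1, edgeR). KIFC1 had 91.8 and 47.6 CPM with TK, against 51.1, 40.9 and 56.9 CPM with DMSO, and its log2 change of 0.49 became -0.06 without the first TK library. KIFC2, with the smallest p of the transport list, had 25.0 and 24.0 CPM with TK, against 20.7, 19.9 and 20.2 CPM with DMSO, a log2 change of 0.27 (SE 0.16, adjusted p = 1, edgeR).

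**Figure D2:**
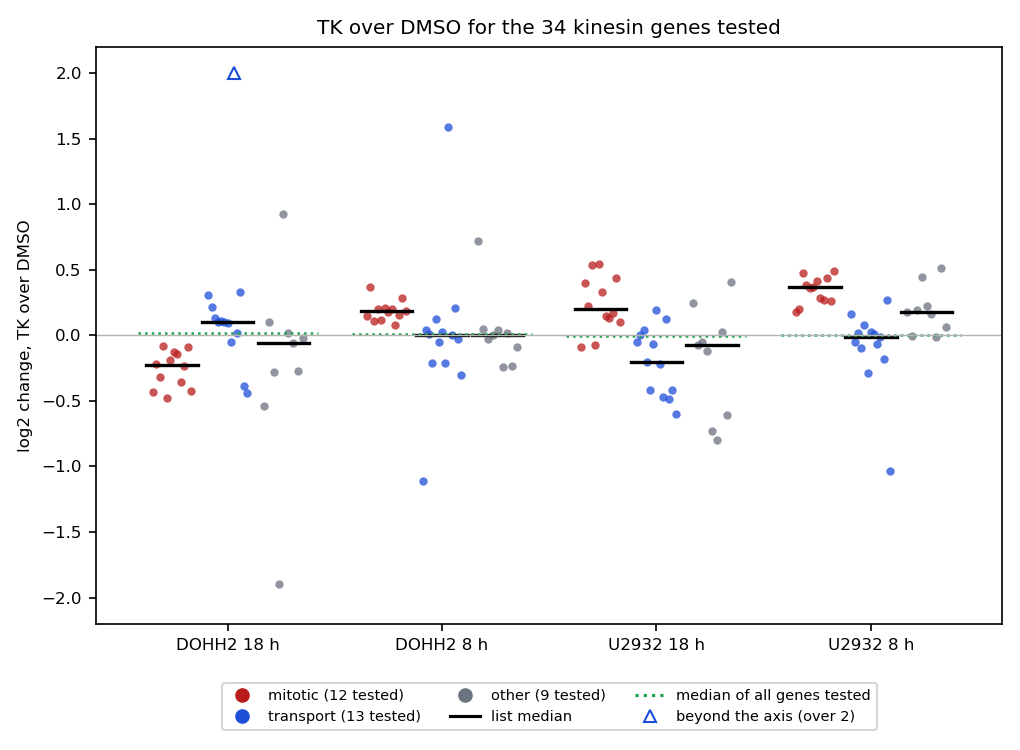
Log2 change of TK over DMSO for the 34 tested kinesins in each line and time. Points are genes (mitotic red, transport blue, other grey), black bars are list medians and the green dotted line is the median of all genes tested. The triangle is KIF5A in DOHH2 at 18 h, which lies beyond the axis and has no count with DMSO, and KIF26A is drawn at 0 in DOHH2 at 8 h because it had no count there. The mitotic points all lie below 0 in DOHH2 at 18 h and all above 0 at 8 h in both lines.

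The genes that work with the mitotic kinesins had list medians of the same sign. The 18 partners, among them the Aurora kinases, the chromosomal passenger proteins, PRC1 and the kinesin-7 CENPE, had 1 positive log2 change in DOHH2 at 18 h (median -0.28) and 16 at 8 h (0.15), while they had 16 in U2932 at 18 h (0.42) and 18 at 8 h (0.28). The 15 genes of G2 and M phase had 1, 14, 11 and 14 positive changes in the same order, with medians of -0.34, 0.16, 0.30 and 0.29. None of these genes passed the threshold in edgeR. AURKB, the kinase of the passenger complex, averaged 66.8 ± 6.22 CPM (SD, n = 3) with TK and 100.5 ± 0.587 CPM (SD, n = 2) with DMSO in DOHH2 at 18 h, a log2 change of -0.59 (SE 0.21, adjusted p = 0.419, edgeR). In U2932 at 18 h CCNB1, a cyclin needed for mitosis, averaged 379.6 ± 20.2 CPM (SD, n = 3) with TK, against 164 CPM in the DMSO library, a log2 change of 1.21 (SE 0.22, adjusted p = 0.115, edgeR). AURKA, a kinase of the spindle poles, averaged 220.1 ± 1.2 CPM (SD, n = 3) with TK, against 114 CPM, a log2 change of 0.95 (SE 0.23, adjusted p = 0.284, edgeR).

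The 15 genes of S phase had a median of the same sign in both lines. They had 0 positive log2 changes in DOHH2 at 18 h (median -0.34) and 1 at 8 h (-0.17), while they had 0 in U2932 at 18 h (-0.41) and 4 at 8 h (-0.06). None passed the threshold in edgeR. CCNE2, a cyclin of the start of S phase, averaged 12.3 ± 1.75 CPM (SD, n = 3) with TK in U2932 at 18 h, against 31.4 CPM in the DMSO library, a log2 change of -1.35 (SE 0.30, adjusted p = 0.200, edgeR). In DOHH2 at 18 h UHRF1, which keeps DNA methylation through replication, averaged 85.8 ± 22.2 CPM (SD, n = 3) with TK, with a log2 change of -0.61 (SE 0.16, adjusted p = 0.241, edgeR). Cytoplasmic dynein and dynactin, the motor that walks the other way, had 9 of 18 positive in DOHH2 at 18 h (median 0.00) and 14 of 18 in U2932 at 18 h (median 0.14). The light chains and adaptors of the transport kinesins had 12 of 20 positive in DOHH2 at 18 h (median 0.07) and 11 of 20 in U2932 at 18 h (median 0.03). How far the share of cells in each phase sets the kinesin values was not tested.

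**Figure D3:**
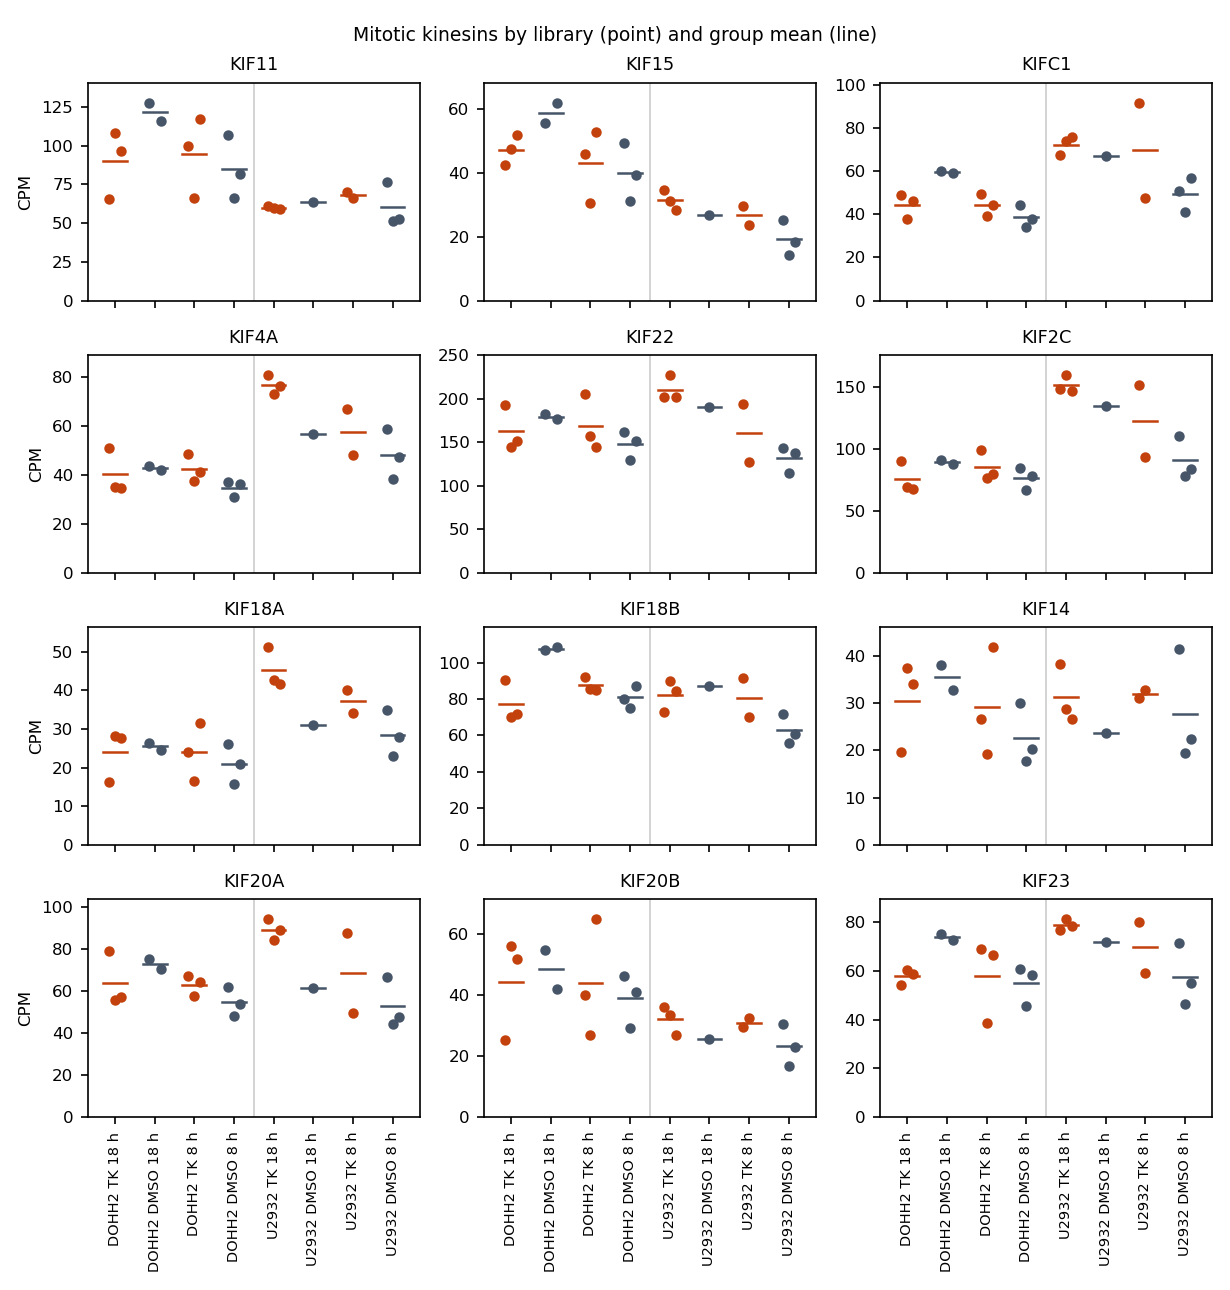
Level in CPM of the 12 tested mitotic kinesins, 1 panel each, with a point for every library, grouped by line, time and treatment. KIF18B, KIFC1, KIF11, KIF23 and KIF15 show the 3 DOHH2 TK libraries at 18 h below both DMSO libraries, and KIF20A, KIF4A and KIF18A show the 3 U2932 TK libraries at 18 h above the DMSO library.

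The TK effects were also compared with each other, using the same libraries as above and therefore not as independent evidence. The effect in DOHH2 minus that in U2932 at 18 h had a median of -0.51 over the mitotic kinesins, all 12 negative. The median was 0.17 over the transport kinesins and 0.02 over all genes. With replicate number as a block the mitotic median was -0.22, and the U2932 effect rests on 1 DMSO library. No kinesin passed the threshold in edgeR, beside 0.0243% of all genes, and 3 had an unadjusted p under 0.05 (6.17% of all genes). KIF20A had a difference of -0.73 (SE 0.34, adjusted p = 0.781, edgeR). The effect at 18 h minus that at 8 h in DOHH2 had a median of -0.41 over the mitotic kinesins, again all 12 negative, and 0.12 over the transport kinesins (0.03 without the first TK library at 18 h), with 0 kinesins and 0.0121% of all genes called in edgeR and 2 kinesins and 4.32% of all genes at an unadjusted p under 0.05. KIF18B had a difference of -0.59 (SE 0.20, adjusted p = 1, edgeR). For U2932 the same difference in time had a mitotic median of -0.14, which was 0.14 without the first TK library at 8 h, with 0 kinesins and 0.00607% of all genes called in edgeR and 3 kinesins and 3.11% of all genes at an unadjusted p under 0.05. The difference between the lines at 8 h had a mitotic median of -0.19, which was 0.07 without that library, with no gene of any kind called in edgeR and 0 kinesins and 1.92% of all genes at an unadjusted p under 0.05.

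The mitotic kinesins of DOHH2 with DMSO had a higher sum at the later time. It was 936 and 894 CPM at 18 h, against 789, 591 and 705 CPM at 8 h. All 12 members were positive, with a median log2 difference of 0.41, beside 0.07 over the transport kinesins and 0.00 over all genes. In 10 of the 12 both libraries at 18 h were above all 3 at 8 h, beside 18.7% of all genes. No kinesin passed the threshold in edgeR, beside 0.631% of all genes, and 8 kinesins had an unadjusted p under 0.05 (10.8% of all genes). KIFC1 had 60.0 and 59.1 CPM at 18 h, against 44.6, 34.1 and 37.7 CPM at 8 h, a log2 difference of 0.62 (SE 0.20, adjusted p = 0.220, edgeR). KIF24, which restrains the growth of cilia from centrioles, had 14.83 and 15.05 CPM at 18 h, against 11.4, 8.37 and 8.64 CPM at 8 h, a log2 difference of 0.66 (SE 0.18, adjusted p = 0.122, edgeR). The lower mitotic sum with TK at 18 h in DOHH2 was thus read against a DMSO group above its own level at 8 h.

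With TK in DOHH2 the mitotic sum was 776, 750.4 and 749 CPM at 18 h, against 867, 651 and 834 CPM at 8 h, a median log2 difference of 0.00 with 6 of 12 positive. The transport median was 0.24, and 0.16 without the first library at 18 h. No kinesin passed the threshold in edgeR, beside 1.57% of all genes, and 5 had an unadjusted p under 0.05 (18% of all genes). KIF1B, which carries mitochondria and synaptic vesicle precursors, had 10.9, 7.56 and 8.24 CPM at 18 h, against 4.52, 5.01 and 7.47 CPM at 8 h, a log2 difference of 0.65 (SE 0.20, adjusted p = 0.0948, edgeR) that was 0.48 (adjusted p = 0.184, edgeR) without the first library at 18 h. With TK in U2932 the mitotic median was 0.21, which was 0.41 without the first library at 8 h and 0.02 without the second. The transport median was -0.18, which was -0.31 and -0.08 without the same libraries. No kinesin passed the threshold in edgeR, beside 0.218% of all genes, and 3 had an unadjusted p under 0.05 (18.7% of all genes). KIF27 had 1.95, 1.40 and 1.31 CPM at 18 h, against 2.39 and 3.41 CPM at 8 h, a log2 difference of -0.92 (SE 0.26, adjusted p = 0.0912, edgeR).

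More kinesins were called between the lines than between the treatments. With DMSO for 8 h (3 libraries in each line) 19 of 34 kinesins passed the threshold in edgeR, beside 67.8% of all genes. Of the kinesins 11 were higher in DOHH2 and 8 lower, and of all genes 33% were higher and 34.9% lower. The share of kinesins called was below that of all genes. By list 5 of 12 mitotic kinesins, 9 of 13 transport kinesins and 5 of 9 other kinesins were called. The median log2 difference of DOHH2 over U2932 was -0.01 over the mitotic list, 0.27 over the transport list, -0.20 over the other kinesins and -0.03 over all genes. When each of the 6 libraries was left out in turn, 12 of the 19 calls held in every case. The transport median was 0.16 without the first DOHH2 library, and the mitotic median ran from -0.15 without the second U2932 library to 0.17 without the first.

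The widest contrasts were between close relatives. KIF21A and KIF21B both slow the growth of microtubule ends, and KIF21B is known for this in T cells. KIF21B (chr1:200969390-201023700, minus strand, GRCh38) had 113, 149 and 108 CPM in DOHH2 with DMSO for 8 h, against 5.45, 4.18 and 4.73 CPM in U2932. Its log2 difference was 4.69 (SE 0.23, adjusted p = 2.21e-13, edgeR). KIF21A (chr12:39293228-39443390, minus strand, GRCh38) had 5, 3 and 0 counts in DOHH2, against 1429, 1076 and 1160 counts in U2932, a level 491-fold lower in DOHH2 (95% counting interval 249 to 1137, adjusted p = 9.24e-15, edgeR). Of the CPM per kilobase of the pair, KIF21A made up 0.109 ± 0.0609% in DOHH2 (SD, n = 11) and 89.2 ± 1.80% in U2932 (SD, n = 9). The pair summed to 10.2 ± 1.85 CPM per kilobase in DOHH2 and 3.84 ± 0.575 in U2932 with DMSO for 8 h (SD, n = 3 each), so the level of KIF21A in U2932 did not match that of KIF21B in DOHH2.

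Among the kinesin-1 heavy chains the pair of neuronal forms was split in the same manner. KIF5A (chr12:57549998-57586632, plus strand, GRCh38) had 0, 2 and 0 counts in DOHH2 with DMSO for 8 h, against 364, 285 and 283 counts in U2932, a level 499-fold lower in DOHH2 (95% counting interval 138 to 4126, adjusted p = 4.74e-11, edgeR). KIF5C (chr2:148875250-149026759, plus strand, GRCh38) had 3.13, 1.76 and 1.59 CPM in DOHH2, against 1.18, 0.503 and 0.820 CPM in U2932, a log2 difference of 1.35 (SE 0.30, adjusted p = 0.000523, edgeR). KIF5A made up 3.02 ± 4.56% of the pair's CPM per kilobase in DOHH2 (SD, n = 11) and 93.8 ± 1.44% in U2932 (SD, n = 9). Both were minor beside KIF5B, which had 137, 119 and 117 CPM in DOHH2, against 146, 116 and 105 CPM in U2932, a log2 difference of 0.02 (SE 0.15, adjusted p = 0.903, edgeR). All kinesin-1 heavy chains together came to 21.4 ± 1.91 CPM per kilobase in DOHH2 and 22.3 ± 3.90 in U2932 (SD, n = 3 each).

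**Figure D4:**
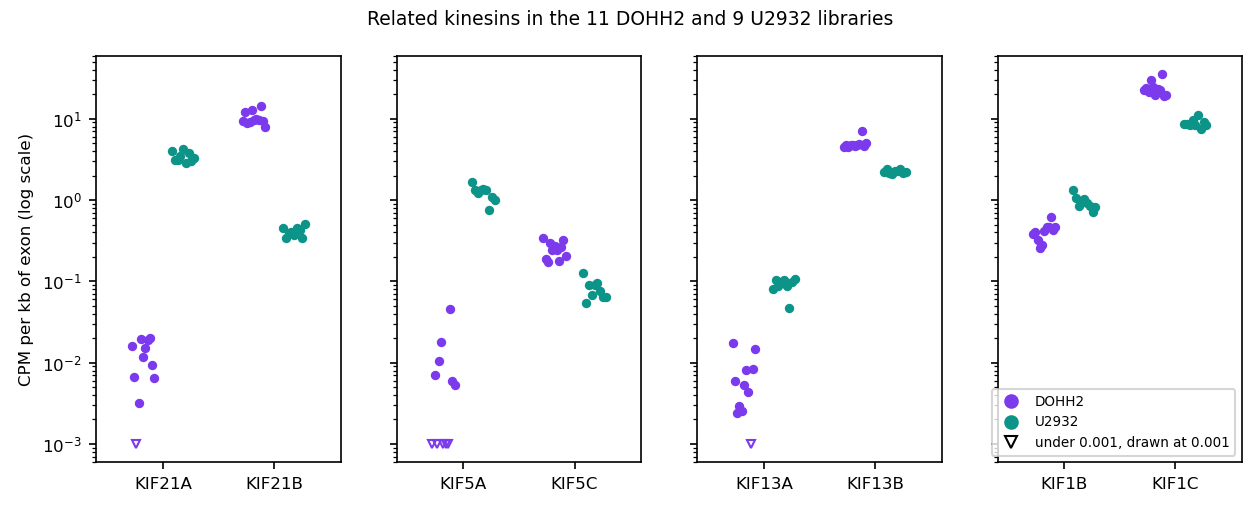
Level in CPM per kilobase of exon, on a log scale, of 4 pairs of related kinesins (KIF21A and KIF21B, KIF5A and KIF5C, KIF13A and KIF13B, KIF1B and KIF1C) in the 11 DOHH2 libraries (purple) and the 9 U2932 libraries (teal). Triangles are libraries under 0.001, drawn at 0.001. The lines do not overlap for any of the 8 genes, and in the KIF21 and KIF5 pairs the higher gene differs between the lines. The share of all genes without overlap over these libraries was not counted. With DMSO for 8 h alone, such differences were common, with 5923 genes higher and 6243 lower in DOHH2 without overlap among the 16478 tested.

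The kinesin-3 motors, which carry vesicles and endosomes, also differed between paralogues. KIF1C, linked to dense-core vesicles and integrins, had 193, 206 and 184 CPM in DOHH2 with DMSO for 8 h, against 74.3, 74.9 and 71.5 CPM in U2932, a log2 difference of 1.40 (SE 0.19, adjusted p = 1.47e-06, edgeR). KIF1B ran the other way, with 6.77, 7.19 and 5.67 CPM in DOHH2, against 23.6, 18.7 and 14.9 CPM in U2932, a log2 difference of -1.54 (SE 0.19, adjusted p = 5.81e-07, edgeR). KIF13B, which binds the scaffold DLG1, had 49.6, 53.2 and 49.7 CPM in DOHH2, against 24.7, 26.6 and 24.0 CPM in U2932, a log2 difference of 1.02 (SE 0.13, adjusted p = 7.20e-07, edgeR). KIF13A, a motor of recycling endosomes, had 6, 3 and 1 counts in DOHH2, against 31, 39 and 36 counts in U2932, a level 11.4-fold lower in DOHH2 (95% counting interval 5.94 to 24.4). KIF16B, a motor of early endosomes, had 3.32, 2.85 and 2.56 CPM in DOHH2, against 10.4, 7.52 and 7.43 CPM in U2932, a log2 difference of -1.54 (SE 0.19, adjusted p = 3.05e-07, edgeR). In all 5 genes the lines did not overlap, which was common, with 5923 genes higher and 6243 lower without overlap among the 16478 tested. KIF1BP, which binds motor heads of several kinesins and keeps them off microtubules, was also higher in DOHH2, at 20.3 ± 2.95 CPM, against 4.40 CPM on average in U2932, a log2 difference of 2.2 (SE 0.15, adjusted p = 5.81e-11, edgeR).

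The kinesin-2 subunits differed less. KIF3B had 42.8, 41.5 and 39.7 CPM in DOHH2 with DMSO for 8 h, against 34.4, 32.7 and 35.7 CPM in U2932, a log2 difference of 0.27 (SE 0.11, adjusted p = 0.0380, edgeR). Its partner KIF3A did not pass the threshold, at 0.16. KIFC2 was higher in DOHH2 by a log2 difference of 0.36 (SE 0.14, adjusted p = 0.0304, edgeR). The calls of KIF3B and KIFC2 were each lost in 5 of the 6 cases with a library left out (all but the third DOHH2 library for KIF3B and the first for KIFC2), with adjusted p-values of up to 0.153 and 0.105 in edgeR.

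Among the mitotic kinesins KIF15 differed most with DMSO for 8 h. It had 49.4, 31.3 and 39.3 CPM in DOHH2, against 25.3, 14.3 and 18.2 CPM in U2932, a log2 difference of 1.05 (SE 0.21, adjusted p = 0.000156, edgeR), and the call held with each library left out. KIF20B, a motor of late cytokinesis, had 46.4, 29.2 and 41.1 CPM in DOHH2, against 30.4, 16.6 and 22.8 CPM in U2932, a log2 difference of 0.74 (SE 0.30, adjusted p = 0.0324, edgeR). KIF11 had 107, 66.5 and 82.0 CPM in DOHH2, against 76.7, 51.2 and 53.0 CPM in U2932, a log2 difference of 0.50 (SE 0.21, adjusted p = 0.0416, edgeR). The libraries of the lines overlapped for KIF20B and KIF11 and did not for KIF15. KIF18B was also higher in DOHH2 (0.37, SE 0.13, adjusted p = 0.0188, edgeR), and KIF4A was lower (-0.46, SE 0.17, adjusted p = 0.0217, edgeR). These 4 calls rested on single libraries. KIF20B and KIF11 lost theirs without the first or the third DOHH2 library or the second or the third U2932 library (adjusted p up to 0.160 and 0.239 in edgeR), and KIF18B without the third DOHH2 library or the second or the third U2932 library (up to 0.115). KIF4A lost its call without the second DOHH2 or the first U2932 library (up to 0.153).

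**Figure D5:**
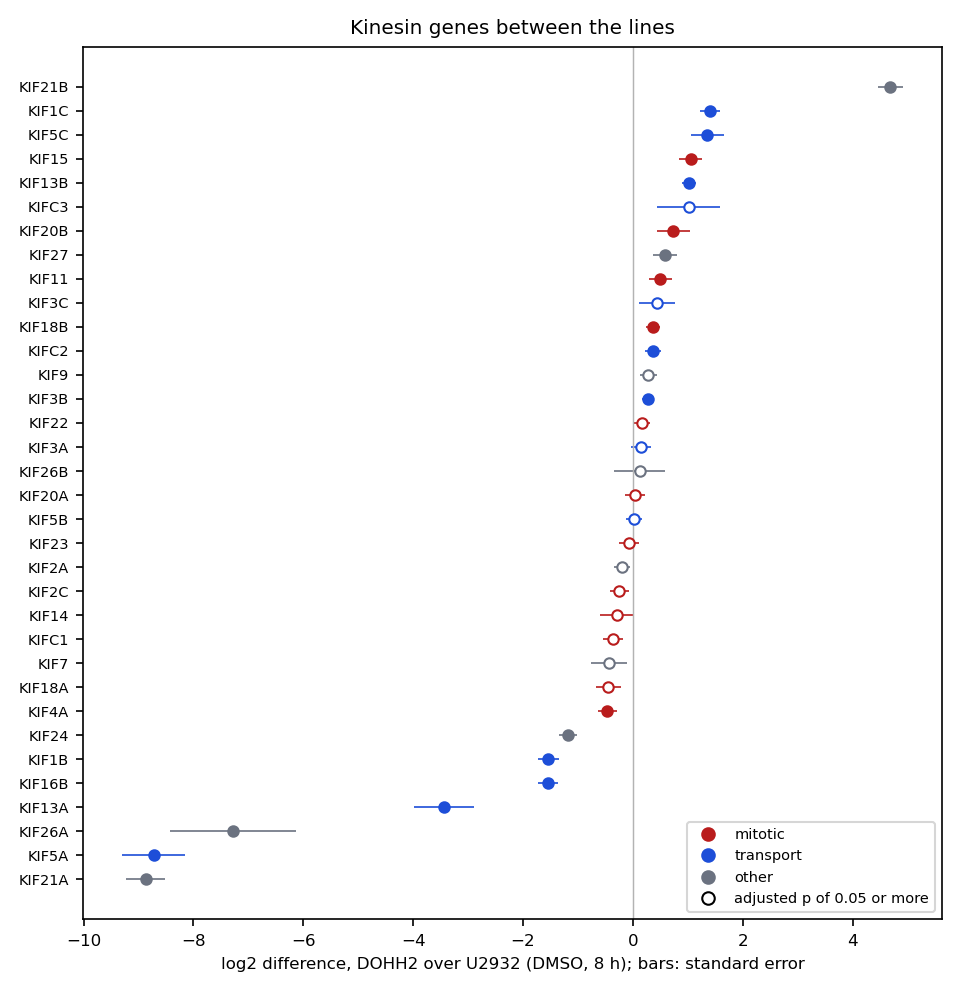
Log2 difference of DOHH2 over U2932 with DMSO for 8 h (3 libraries each) for the 34 tested kinesins, ordered by that difference and coloured by list. Bars are the standard error and filled points passed an adjusted p of 0.05 in edgeR. KIF21B lies farthest to the higher side in DOHH2, and KIF21A, KIF5A and KIF26A farthest to the lower side, where the fitted value depends on the prior count because DOHH2 had 8, 2 and 0 counts.

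Of the other kinesins KIF24 was lower in DOHH2 with DMSO for 8 h, with 11.4, 8.37 and 8.64 CPM, against 27.4, 18.1 and 18.9 CPM in U2932, a log2 difference of -1.18 (SE 0.17, adjusted p = 2.56e-06, edgeR). KIF26A, a kinesin without ATPase activity, had no count in the 3 DOHH2 libraries, against 31, 11 and 12 counts in U2932, a level at least 19.3-fold lower in DOHH2 by a floor of 3 counts over the group. KIF27 had 4.33, 3.83 and 3.54 CPM in DOHH2, against 3.21, 2.43 and 2.16 CPM in U2932, a log2 difference of 0.58 (SE 0.22, adjusted p = 0.0255, edgeR). That call was lost without the first DOHH2 library or the second or the third U2932 library (adjusted p up to 0.111 in edgeR). KIF2A, a depolymerase of the spindle poles, did not pass the threshold and had 70.3, 59.2 and 61.9 CPM in DOHH2, against 80.4, 73.9 and 65.5 CPM in U2932.

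With TK for 18 h the lines differed in 26 of 34 kinesins, 11 higher in DOHH2 and 15 lower, beside 69.2% of all genes in edgeR (34.2% higher and 34.9% lower). The mitotic list had 9 of 12 called, with a median of -0.41, and the transport list 11 of 13, with a median of 0.52, while the median over all genes was 0.00. KIF2C had 90.4, 69.2 and 67.3 CPM in DOHH2, against 148, 159 and 147 CPM in U2932, a log2 difference of -1.0 (SE 0.17, adjusted p = 2.78e-05, edgeR). KIF4A had 51.1, 35.0 and 34.7 CPM in DOHH2, against 80.7, 72.9 and 76.2 CPM in U2932 (-0.93, SE 0.17, adjusted p = 7.21e-05, edgeR). KIF18A was lower by a log2 difference of -0.90 (SE 0.23, adjusted p = 0.00156, edgeR) and KIFC1 by -0.71 (SE 0.18, adjusted p = 0.00205, edgeR). These 4 calls held with each library left out. KIF20A, KIF22 and KIF23 were lower in DOHH2 too, by -0.48, -0.37 and -0.45, but lost their calls in 3, 5 and 6 of the 6 cases with a library left out. For KIF23 any library did so (adjusted p up to 0.0894), for KIF22 any but the first DOHH2 library (up to 0.159), and for KIF20A the second or the third DOHH2 or the first U2932 library (up to 0.107).

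KIF15 and KIF11 were higher in DOHH2 with TK for 18 h, each by a log2 difference of 0.59 (SE 0.21 each, adjusted p = 0.0157 and 0.0168, edgeR). KIF15 lost its call without the third library of either line (adjusted p up to 0.0703) and KIF11 without the second DOHH2 or the third U2932 library (up to 0.0938). The partners of the mitotic kinesins had 15 of 18 called, 13 of them lower in DOHH2, with a median of -0.76, and the genes of G2 and M phase 12 of 15, 10 of them lower, with a median of -0.73. In the transport list KIF5B, at 119, 153 and 140.2 CPM in DOHH2, against 109, 87.0 and 94.8 CPM in U2932, was called here (0.51, SE 0.15, adjusted p = 0.00574, edgeR) although it was not with DMSO for 8 h. KIF3C, a kinesin-2 subunit, had 8.14, 3.19 and 2.79 CPM in DOHH2, against 1.46, 1.83 and 1.6 CPM in U2932 (1.52, SE 0.32, adjusted p = 0.000301, edgeR), and without the first DOHH2 library the value was 0.88. KIF1C (1.57), KIF5C (1.96), KIF5A, KIF21A (-8.12), KIF21B (4.63), KIF24 (-1.13) and KIF27 (1.77) were called in the same direction as with DMSO for 8 h, and KIF27 here held its call with each library left out. KIF5A had 10, 2 and 1 counts in DOHH2, against 144, 241 and 284 counts in U2932, a level 55.2-fold lower in DOHH2 (95% counting interval 32.0 to 104). Its fitted log2 difference depends on the prior count and was -5.70 with all libraries and -7.26 without the first DOHH2 library. Without that library KIF1C was 1.21, KIF11 was 0.77, KIF15 was 0.66, KIF20A was -0.66, KIF2C was -1.15, KIF4A was -1.14 and KIF18A was -0.69, each still called, and KIF20B (0.75, adjusted p = 0.0234, edgeR) and KIF26B (-1.48, adjusted p = 0.00982, edgeR) were called as well. Whether the difference between the lines itself changed with time or treatment was not tested beyond the comparisons of TK effects given above.

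With TK for 8 h 18 of 34 kinesins were called, 6 higher in DOHH2 and 12 lower, beside 62.8% of all genes in edgeR (30.7% higher and 32.1% lower). The mitotic list had 5 called, with a median of -0.12, which was 0.15 without the first U2932 library and 0.03 without the second DOHH2 library. KIF15 was higher in DOHH2, by a log2 difference of 0.69 (SE 0.23, adjusted p = 0.0150, edgeR), and lost its call without the third DOHH2 or the second U2932 library (up to 0.148). KIFC1 (-0.66), KIF2C (-0.53), KIF18A (-0.63) and KIF4A (-0.44) were lower in DOHH2, and each lost its call without the first U2932 library, where their adjusted p reached 0.672, 0.588, 0.185 and 0.515 in edgeR. KIF18A also lost it without the first or second DOHH2 or the second U2932 library, and KIF2C and KIF4A without the second or the third DOHH2 library. In the transport and other lists KIF5A (-7.07), KIF5C (1.74), KIF1B (-1.65), KIF16B (-1.55), KIF21A (-8.33), KIF21B (4.74) and KIF24 (-1.41) held their calls with each library left out. KIF7, with 0.781, 0.643 and 0.836 CPM in DOHH2 and 2.42 and 1.02 CPM in U2932 (-1.18, SE 0.35, adjusted p = 0.00634, edgeR), did not hold it without the first U2932 library (adjusted p = 0.357).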

How the data were processed

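RNA was extracted with Qiagen RNeasy and poly(A) libraries were sequenced, per the labels. The deposited values are whole-number counts of reads per gene, made by the authors for each library with STAR, HTSeq and edgeR on GRCh38.p10, per the submitters' processing notes. For versions, annotation release and strand setting: not given in the sources used here. Of the tested kinesins, 6 share over 10% of their exon length with another gene (KIF9, KIFC2, KIF27, KIF22, KIFC1 and KIF7), and their reads may be shared.

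From these counts edgeR 4.0.16 (R 4.3.3, TMM scaling, robust quasi-likelihood fit) was run over 20 libraries in 8 groups of line, treatment and time. Genes needed 0.288 CPM, or 10 counts in the median library, in at least 3 libraries, which kept 16478 of the 34160 genes with a count. Adjusted p-values are Benjamini-Hochberg over all of these, and 0.05 was the threshold. Fitted log2 changes use the default prior count of edgeR. A prior count of 2 was used for the log2 levels behind the correlations of replicate numbers. Summarised annotation and exon lengths came from GENCODE v29 (GRCh38). DESeq2 1.42.0 and limma 3.58.1 served as alternatives, with other scalings, filters, groupings, a replicate block and left-out libraries, and the scripts were tested on simulated data. Counting intervals (95%) and floors cover counting error only, since reads without molecular identifiers are not independent molecules.

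Kinesins were chosen by symbol. The members and lists were chosen with earlier results of these data known. Named with statistics were, in each treatment comparison, the member of the mitotic and of the transport list with the smallest p. In the comparisons of lines and times they were up to 4 members of each list past the threshold with the largest log2 difference and at least 1 CPM on average. Of each companion list up to 2 genes with the smallest p in a comparison could be named. Other genes given with statistics were chosen after their values were seen.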

Additional observations from a re-analysis of the deposited data

Results flagged for a closer look

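In 5 comparisons of TK effects every library of one group lay on one side of its DMSO libraries and every library of the other group on the opposite side, while the test of the difference did not pass the threshold. At 18 h the TK effect in DOHH2 minus that in U2932 was -0.54 for KIF15 (SE 0.37, adjusted p = 0.879, edgeR). It was -0.49 for KIF23 (SE 0.34, adjusted p = 0.879, edgeR) and -0.53 for KIFC1 (SE 0.33, adjusted p = 0.864, edgeR). For KIF5A it was 5.58 (SE 1.84, adjusted p = 0.706, edgeR), a fitted value that depends on the prior count because the DOHH2 DMSO libraries had no count. In U2932 the TK effect of KIFC2 at 18 h minus that at 8 h was -0.69 (SE 0.25, adjusted p = 1, edgeR). All 5 rest on the single U2932 DMSO library at 18 h for 1 of their effects. KIFC1 was among them by a narrow margin. Its lowest TK library in U2932 at 18 h had 67.36 CPM, against 67.29 CPM with DMSO. In that comparison 5134 genes lay higher and 5381 lower with TK without overlap, among the 16478 tested. The share of all genes with opposite sides in 2 effects was not counted.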

How the results depend on the processing

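In DOHH2 at 18 h TK called 4 kinesins with limma voom weights (KIF18B, KIFC1, KIF2C and KIF3C), the smallest adjusted p being 0.000567 for KIF18B, whose range over its alternatives was 0.000567 to 1. In U2932 at 18 h, set against the DMSO libraries of 8 h and 18 h together, TK called 4 (KIF4A, KIF20A, KIF2C and KIF27), the mitotic median was 0.47, and KIFC2 turned to 0.084. The adjusted p of KIF20A there was 0.0245 (range 0.0245 to 1). The mitotic median in U2932 at 8 h ran from 0.093 to 0.529 over left-out libraries. Against a 1.5-fold minimum the lines differed in 12 kinesins with DMSO for 8 h and 14 with TK for 18 h. Over time in DOHH2 with TK, 1 kinesin was called at a threshold of 0.1, 2 with no filter, 2 by DESeq2, 11 with voom and 0 to 2 with a library left out. In U2932 with TK 1, KIF27, was called at a threshold of 0.1, with no filter, with 1 line or only the compared groups fitted, by DESeq2, by voom and without the DOHH2 TK libraries numbered 1. In DOHH2 with DMSO 4 were called with no filter, 1 by DESeq2 and 9 with voom. The difference of TK effects between the lines at 18 h gave 1 call with no filter, KIF5A. The mitotic medians of 3 comparisons turned sign without the first U2932 TK library at 8 h, as given above. The causes were not tested. The share of all genes called under each alternative is not given here, so the counts of calls in this paragraph are not read as results about kinesins. With the replicate block the treatment, time and difference comparisons called 0 kinesins and the lines 20, 18 and 26, with mitotic medians of -0.14 in DOHH2 and 0.03 in U2932 for TK at 18 h and -0.22 for their difference. Deviations of same-numbered libraries correlated at 0.218, 0.275 and 0.034 in DOHH2 at 8 h, 0.038 and 0.025 at 18 h, and 0.068 and 0.160 in U2932 at 8 h. Those of different-numbered libraries ran from -0.248 to 0.031, from -0.038 to 0.030 and from -0.160 to 0.067 in the same order. At 8 h every same-numbered value was above the different-numbered ones of its line, by as little as 0.034 against 0.031 in DOHH2 and 0.068 against 0.067 in U2932. Deviations from a group mean cancel within the group, so in a group of 2 libraries they mirror each other. Opposite signs are therefore partly built in, and these values cannot show whether equal numbers are pairs. The labels do not say whether equal numbers are pairs, so the main fit did not take them as pairs.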
